A study of Homo sapiens with 16 samples.

Results

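The genes described here are 10 members of the IER, ZFP36 and NR4A early response families and the small Maf factor MAFF, taken by their symbols from the deposited table of counts, which lists 42351 genes. They are ZFP36, ZFP36L1, ZFP36L2, IER2, IER3, IER5, NR4A1, NR4A2, NR4A3 and MAFF, and all 10 passed the filter on low counts. Polyadenylated RNA came from a line with wt MET (A549, a lung adenocarcinoma line, by the sample labels) and from a line with MET∆14 (NCI-H596, a lung adenosquamous carcinoma line whose MET lacks exon 14). Cells of both lines were deprived of serum and then received hepatocyte growth factor (HGF), the ligand of the receptor tyrosine kinase MET, for 3, 6 or 12 h. Cells at 0 h were deprived of serum but had no HGF, and each of the 8 conditions had 2 replicates, which the paper calls biological, for 16 libraries. Serum deprivation lasted 12 h by the labels and longer by the paper's methods, and the paper's text abbreviates EKVX, not A549, as the wt line. Each MET status was therefore represented by 1 cell line, so the MET status and every other difference between the lines cannot be told apart. As 0 h is the only untreated time, a change over time without HGF and a change with HGF cannot be told apart either, and the 3 times of a line share its 0 h libraries.

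Immediate early genes are transcribed within minutes of a growth factor signal from factors that the cell already holds, mainly through the ERK pathway, and their short-lived mRNAs let the response fade quickly. The NR4A genes encode orphan nuclear receptors, and MAFF a small Maf factor that binds DNA with CNC partners such as NRF2 and BACH1. ZFP36 (tristetraprolin) and its relatives ZFP36L1 and ZFP36L2 bind AU-rich elements in the 3′ untranslated regions (UTRs) of cytokine and growth factor mRNAs and bring in the deadenylases that lead to their decay, so that they act as a brake within the same response.

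The libraries held 10158590 to 23909304 counted reads, and 15067 genes were tested. Levels are given as CPM (counts scaled to a common total) on library sizes scaled by TMM. The common biological coefficient of variation was 0.0868. In 15 of 16 cases a library correlated best with its own replicate, and replicate 2 of MET∆14 at 12 h, which stood closer to a library at 6 h, did not. Among the label checks, CDKN2A and MTAP, whose loss is known in A549, had 0 and 5 to 23 counts with wt MET and 1466 to 3464 and 883 to 3141 with MET∆14. The squamous keratin KRT5 had at most 3 counts with wt MET and 22993 to 57442 with MET∆14, and the lung surfactant gene SFTPB had 0 counts in every library. The epithelial keratins KRT8 and KRT18 were high in both lines, whereas the epithelial markers EPCAM (13 to 42 counts with wt MET, 295 to 739 with MET∆14), CDH1 (42 to 174 and 870 to 2907) and KRT19 (404 to 734 and 14249 to 34196) were low with wt MET. PTPRC and CD3E, which define leukocytes, had at most 2 counts in any library, while the macrophage marker CD68 had 494 to 721 with wt MET and 1527 to 3401 with MET∆14. Of the endothelial markers, CDH5 had at most 3 counts, PECAM1 at most 37 and VWF at most 24. The 4 fibroblast markers summed to 11.4 to 19.5 CPM with wt MET and 187 to 346 CPM with MET∆14. COL3A1 (2273 to 7657 counts) carried most of the latter, while COL1A2 and PDGFRB had at most 2 counts in that line.

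On hg38 with the GENCODE 44 annotation, the ZFP36 genes lie on chromosomes 19 (chr19:39406847-39409412, plus strand), 14 (chr14:68787660-68796253, minus) and 2 (chr2:43222402-43226606, minus). IER2 lies at chr19:13150411-13154911 (plus), IER3 at chr6:30743199-30744548 (minus) and IER5 at chr1:181088700-181092900 (plus). NR4A1 lies at chr12:52022832-52059507 (plus), NR4A2 at chr2:156324437-156342348 (minus), NR4A3 at chr9:99821855-99866891 (plus) and MAFF at chr22:38200767-38216507 (plus). The sources used here do not state whether counting used strand, and genes on the opposite strand overlap 52.2% of the exonic bases of IER2, 38.9% of IER3, 22.4% of ZFP36L2, 10.3% of NR4A1 and 5.81% of MAFF. ZFP36L1 shares 7.92% with a gene on its own strand. These shares of bases do not measure how far the counts of these 6 genes are affected, which was not tested. Of the overlapping genes only PLA2G6, the neighbour of MAFF, was found in the table of counts, with 16 to 109 counts.

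Promoter windows of RefSeq (GRCh38.p14, 250 bases before to 50 after a start site) were held for 7 of the 10 genes, as 10 windows. They were searched on both strands for the full cAMP response element TGACGTCA, which CREB family factors bind, for its core TGACG, which the full element also contains on each strand, for the CArG box of serum response factor, for the AP-1 site TGANTCA and for TATAAA. The full element was found in 1 window of MAFF, at position -54 from the start site, and in 1 window of ZFP36L1, at position -52, against 1.85% of all 35114 windows. NR4A3 held 4 matches to the core, and IER2 and the other window of ZFP36L1 held 1 each, against 24.6% of all windows with at least 1. No window of the members matched the CArG box (1.29% of all windows), TGANTCA (7.71%) or TATAAA (11.5%). The MAFF and NR4A3 windows start from the canonical transcript of GENCODE, the ZFP36L1 window lies upstream of its canonical start at position 68793067, and the windows of NR4A1 are not those of its canonical start. The windows of MAFF and ZFP36L1 with the full element, 1 site each, and the NR4A3 window with 4 core matches are shown. At 3 h MAFF and ZFP36L1 rose more with MET∆14 and NR4A3 more with wt MET. Whether the matches are linked to these responses was not tested. Capitals mark the full element and the core on either strand.
MAFF, chr22:38201744-38202043, plus strand: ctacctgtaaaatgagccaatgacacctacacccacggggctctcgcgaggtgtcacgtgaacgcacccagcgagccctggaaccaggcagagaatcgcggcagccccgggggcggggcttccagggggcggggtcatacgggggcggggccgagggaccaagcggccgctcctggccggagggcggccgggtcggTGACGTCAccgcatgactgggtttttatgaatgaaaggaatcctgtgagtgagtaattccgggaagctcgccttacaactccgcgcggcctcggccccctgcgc
ZFP36L1, chr14:68793367-68793666, minus strand: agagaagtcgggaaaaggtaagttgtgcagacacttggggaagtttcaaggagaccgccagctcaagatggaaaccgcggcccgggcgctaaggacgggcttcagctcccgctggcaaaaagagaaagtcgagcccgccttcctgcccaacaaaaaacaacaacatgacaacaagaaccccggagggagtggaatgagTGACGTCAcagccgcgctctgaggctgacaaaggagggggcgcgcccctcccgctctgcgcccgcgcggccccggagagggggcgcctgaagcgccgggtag
NR4A3, chr9:99821635-99821934, plus strand: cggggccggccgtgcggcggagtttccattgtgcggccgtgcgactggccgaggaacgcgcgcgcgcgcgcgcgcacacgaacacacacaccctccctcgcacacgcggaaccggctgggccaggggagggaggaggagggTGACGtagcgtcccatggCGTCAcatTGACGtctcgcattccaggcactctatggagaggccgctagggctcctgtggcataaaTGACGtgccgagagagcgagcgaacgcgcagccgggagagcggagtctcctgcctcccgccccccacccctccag

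The preferred site of the ZFP36 proteins is a nonamer that reads TTATTTATT in DNA letters, and the 3′ UTR of the canonical transcript of each member was searched for it. This nonamer was present in 8.5% of 19229 annotated 3′ UTRs, whose median length was 1064 bases. It occurred in all 3 ZFP36 mRNAs (1 match each), in IER5 (3 overlapping matches) and in MAFF (2 matches). No match was found in IER2, IER3, NR4A1, NR4A2 or NR4A3, whose 3′ UTRs are 559 to 3024 bases long. The shorter AU-rich pentamer ATTTA, which the nonamer contains, was nevertheless found in NR4A3 (10 matches), IER3 (6), NR4A2 (4) and NR4A1 (3). IER2 had 0 matches to it. Among the genes with the nonamer it had 10 matches in IER5, 8 in ZFP36L1, 5 each in ZFP36 and ZFP36L2, and 4 in MAFF. Its share over all 3′ UTRs was not computed. The first nonamer of each of the 5 genes that hold it is shown in capitals, with 10 bases on either side. At 3 h, 4 of these 5 genes had the larger response with MET∆14, ZFP36 being the exception (8.93% of all genes were called as larger). Whether the nonamer is linked to the response was not tested.
ZFP36: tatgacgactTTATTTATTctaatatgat
ZFP36L1: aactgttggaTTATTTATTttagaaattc
ZFP36L2: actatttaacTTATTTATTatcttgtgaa
IER5: gtgtcttcctTTATTTATTtatttattta
MAFF: tccccactgtTTATTTATTgcacggatct

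After 3 h of HGF, 8 of the 10 genes were higher than at 0 h in each line, but the genes and the sizes differed. With wt MET the NR4A genes, IER2, IER3 and ZFP36 rose 3.53-fold to 33.3-fold, ZFP36L1 rose 1.64-fold and MAFF 1.34-fold. With MET∆14 the large rises were those of NR4A3 (4.36-fold), MAFF (4.27-fold) and ZFP36L1 (2.85-fold), and NR4A1 rose 2.10-fold. NR4A3 was close to the limit of detection there, with 9 and 11 counts at 0 h and 36 and 38 at 3 h. At the adjusted p threshold of 0.05 (quasi-likelihood test of edgeR, Benjamini-Hochberg adjustment over all genes), 17.4% of genes were called at 3 h with wt MET, 10.3% as higher and 7.16% as lower, and 31.7% with MET∆14, 15.5% as higher. The median log2 fold change of the members at 3 h was 1.96 with wt MET and 0.74 with MET∆14, beside -0.04 and -0.05 over all genes. In the plot of CPM by time, 6 of the 10 means were highest at 3 h with wt MET, and 8 with MET∆14.

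**Figure D1:**
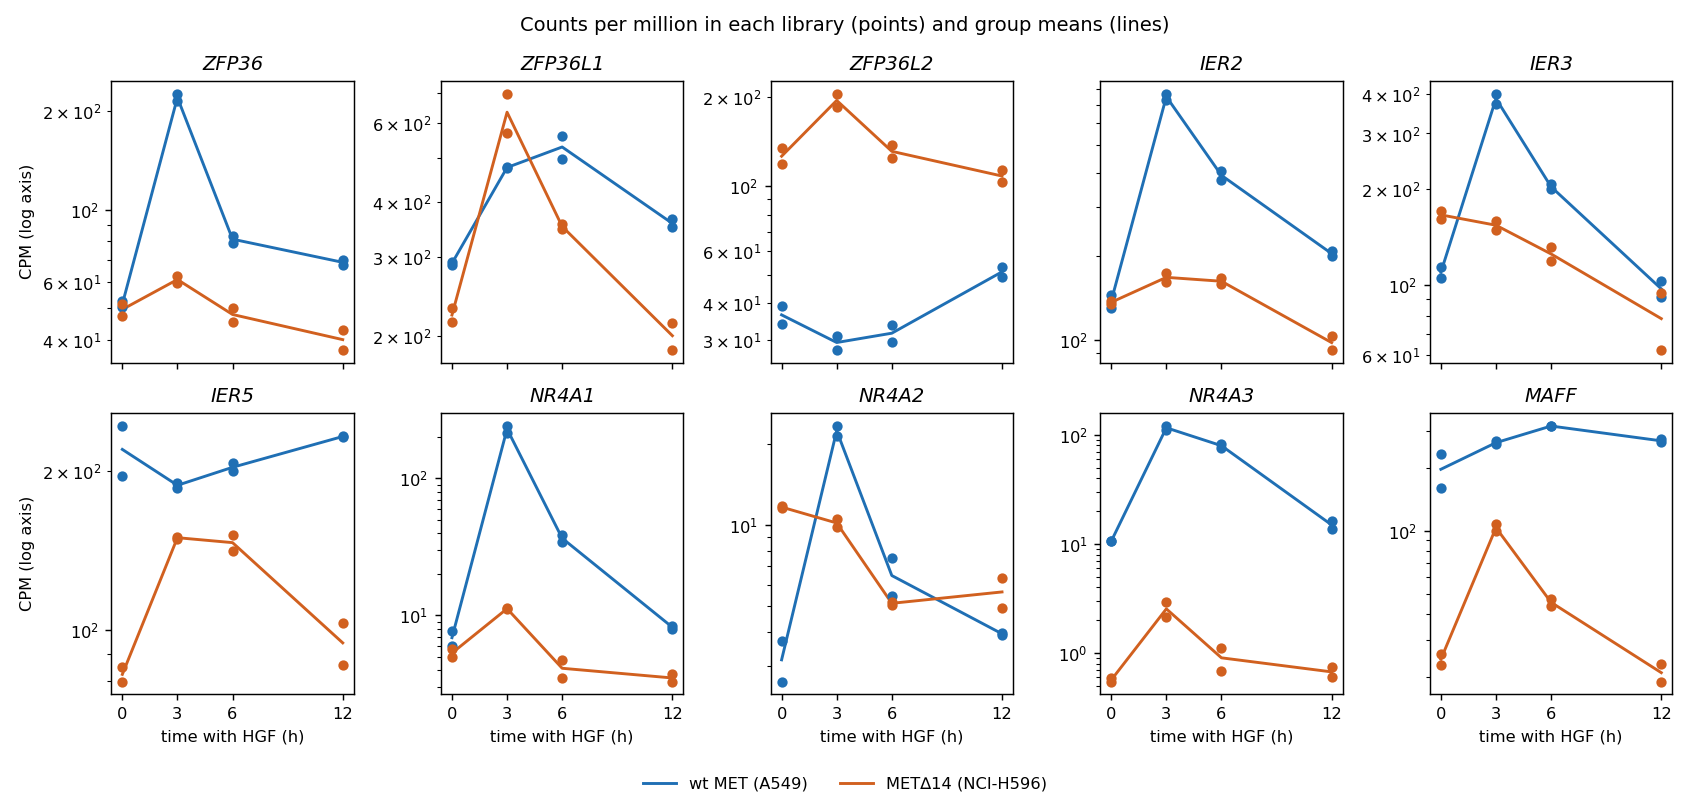
CPM (log axis) of the 10 genes against hours of HGF, with 1 point per library, lines through the means of 2 libraries, wt MET in blue and MET∆14 in orange. NR4A1, NR4A2, IER2, IER3 and ZFP36 peak at 3 h with wt MET and rise less or fall with MET∆14, whereas MAFF and IER5 peak with MET∆14.

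At 6 h, 8 members were higher with wt MET (34.2% of all genes called, 16.4% as higher and 17.8% as lower). With MET∆14, 4 members were higher and 2 lower (44.1% called, 21.6% as higher and 22.5% as lower). At 12 h, 6 members were still higher with wt MET (35.1% called, 16.9% as higher and 18.2% as lower), whereas with MET∆14 none was called higher and 5 were lower (38.3% called, 18.3% as higher and 20.1% as lower). The median log2 fold change of the members was 0.88 at 6 h and 0.37 at 12 h with wt MET, and 0.15 and -0.26 with MET∆14, beside all-gene medians between -0.05 and 0.00. The total counts called for MET∆14 at 6 and 12 h are near the shares called over all genes. All 5 members called at 12 h with MET∆14 were lower, whereas the calls over all genes went both ways. Among the 5, the calls of ZFP36 and NR4A1 were lost in 5 and 3 of 22 alternatives. The direction of the members as a set was not tested. Leaving out either MET∆14 library at 12 h moved some of these values. Without replicate 1 the log2 change was -0.41 for ZFP36 and 0.32 for IER5, and without replicate 2 it was -0.21 and 0.06. Over all times, 9 members were called with wt MET (40.3% of all genes), the exception being IER5 with an adjusted p of 0.0923 (0.0211 with replicate 1 at 0 h left out), and 10 with MET∆14 (54.1%).

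**Figure D2:**
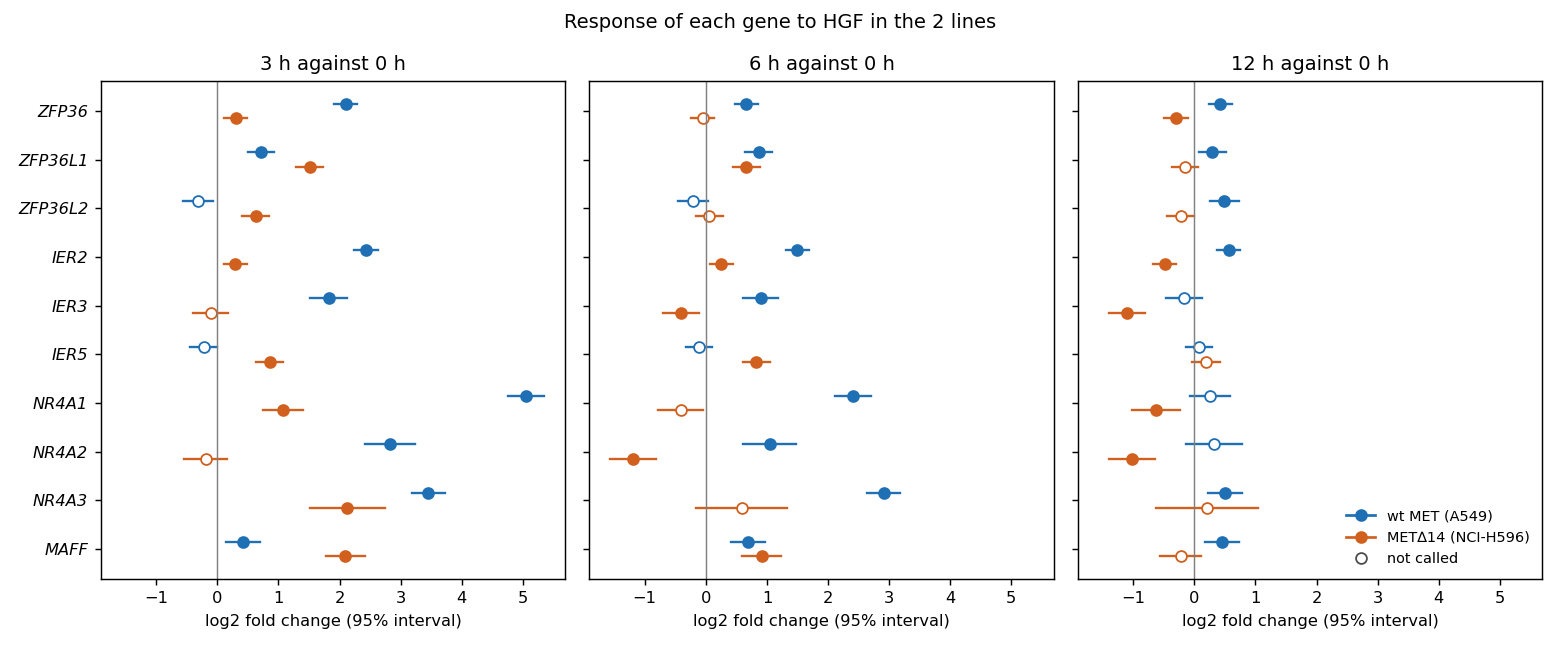
Log2 fold change against 0 h with its 95% interval for each gene at 3, 6 and 12 h, wt MET in blue and MET∆14 in orange, where open circles were not called at an adjusted p of 0.05. At 3 h the blue points of NR4A1 (5.06), NR4A3 (3.45) and NR4A2 (2.82) lie farthest to the right, and at 12 h the orange points of IER3 (-1.10) and NR4A2 (-1.02) farthest to the left.

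The NR4A family had the largest rises of the members with wt MET. NR4A1 (Nur77), an orphan nuclear receptor induced by many stimuli, measured 7.74 and 6.01 CPM at 0 h, 242 and 215 at 3 h, 38.6 and 34.5 at 6 h, and 8.38 and 8.01 at 12 h with wt MET. With MET∆14 it measured 4.95 and 5.66 CPM at 0 h, 11.1 and 11.3 at 3 h, 4.72 and 3.51 at 6 h, and 3.28 and 3.71 at 12 h. The 3 h libraries stood above all others of their line in both lines, and the wt MET values at 12 h were close to those at 0 h. The log2 rise of NR4A1 at 3 h was 5.06 (SE 0.139, adjusted p = 4.54e-12) with wt MET, the second smallest p-value of all genes in that comparison, and 1.07 (SE 0.153, adjusted p = 8.04e-05) with MET∆14. At 12 h it was not called with wt MET (log2 0.26, adjusted p = 0.222) and was lower with MET∆14 (log2 -0.63, adjusted p = 0.0149). The latter call was lost without replicate 2 of MET∆14 at 0 h or replicate 1 at 12 h and when the lines were fitted alone, with values of -0.59 to -0.52.

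NR4A2 (Nurr1), the relative known for its part in dopaminergic neurons, moved in opposite directions. With wt MET it measured 3.69 and 2.62 CPM at 0 h, 23.3 and 21.3 at 3 h, 7.50 and 5.45 at 6 h, and 3.91 and 3.97 at 12 h. In the MET∆14 line it measured 11.7 and 11.5 CPM at 0 h, 9.77 and 10.5 at 3 h, 5.16 and 5.06 at 6 h, and 6.35 and 4.91 at 12 h. The wt MET libraries at 3 h were above all others, whereas the MET∆14 libraries were highest at 0 h, with no overlap with any later time. NR4A2 rose by log2 2.82 (SE 0.189, adjusted p = 9.61e-08) at 3 h and 1.04 (adjusted p = 0.00124) at 6 h with wt MET. With MET∆14 its change at 3 h was -0.19 (95% interval -0.55 to 0.16), and it was lower at 6 h (log2 -1.19, SE 0.175, adjusted p = 6.69e-05) and at 12 h (log2 -1.02, adjusted p = 0.000384).

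NR4A3 (NOR1), the third receptor of the family, measured 10.6 and 10.5 CPM at 0 h, 111 and 121 at 3 h, 76.5 and 82.6 at 6 h, and 16.1 and 13.8 at 12 h with wt MET. With MET∆14 it was close to the limit of detection, with 9 and 11 counts at 0 h, 36 and 38 at 3 h, 15 and 16 at 6 h, and 11 and 8 at 12 h. In CPM these were 0.587 and 0.546, 2.93 and 2.15, 1.12 and 0.685, and 0.602 and 0.742. Every wt MET library was above every MET∆14 library, and in each line the 3 h libraries were the highest. NR4A3 rose by log2 3.45 (SE 0.127, adjusted p = 7.96e-11) at 3 h and 2.91 (adjusted p = 8.68e-10) at 6 h with wt MET, and thus kept more of its rise at 6 h than NR4A1, whose log2 change was 2.41 after 5.06. With MET∆14 it rose by log2 2.12 (SE 0.288, adjusted p = 4.74e-05) at 3 h and was not called at 6 h (log2 0.59, 95% interval -0.16 to 1.33). Its rise at 12 h with wt MET (log2 0.50, adjusted p = 0.00852) was not called without replicate 1 of that condition (log2 0.38, adjusted p = 0.121).

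MAFF, the small Maf factor, started high with wt MET and low with MET∆14. It measured 161 and 234 CPM at 0 h, 269 and 260 at 3 h, 319 and 317 at 6 h, and 265 and 275 at 12 h with wt MET. The MET∆14 libraries held 25.7 and 22.8 CPM at 0 h, 107 and 99.8 at 3 h, 43.5 and 47.4 at 6 h, and 18.9 and 22.9 at 12 h. All wt MET values with HGF were above those at 0 h, where the replicates lay far apart, and with MET∆14 the libraries at 3 and 6 h stood above the rest. MAFF rose by log2 2.10 (SE 0.147, adjusted p = 9.4e-08) at 3 h and 0.91 (adjusted p = 0.000152) at 6 h with MET∆14. With wt MET it rose by log2 0.42 (SE 0.132, adjusted p = 0.0384), 0.69 (adjusted p = 0.00102) and 0.45 (adjusted p = 0.0151) at 3, 6 and 12 h. The rises at 3 and 12 h were not called without replicate 1 of wt MET at 0 h (log2 0.18 and 0.21), and that at 3 h was lost in 12 of 22 alternatives.

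Among the RNA-binding proteins, ZFP36 had its large response in the wt MET line. It measured 52.5 and 50.3 CPM at 0 h, 226 and 215 at 3 h, 83.3 and 79.2 at 6 h, and 67.9 and 70.2 at 12 h with wt MET, so that every time with HGF was above 0 h. The MET∆14 libraries held 47.5 and 51.6 CPM at 0 h, 62.5 and 59.8 at 3 h, 45.4 and 50.2 at 6 h, and 42.8 and 37.3 at 12 h. The 3 h libraries were the highest of that line too, but by little. ZFP36 rose by log2 2.10 (SE 0.0886, adjusted p = 3.79e-10) with wt MET and by log2 0.30 (SE 0.0881, adjusted p = 0.0163) with MET∆14 at 3 h. The latter was not called without replicate 1 of MET∆14 at 0 h or at 3 h, with values of 0.24 to 0.27. At 12 h ZFP36 was higher with wt MET (log2 0.43, adjusted p = 0.00173) and lower with MET∆14 (log2 -0.30, adjusted p = 0.0154). The call at 12 h with MET∆14 was lost in 5 of 22 alternatives, among them without replicate 2 at 12 h (log2 -0.21, adjusted p = 0.0598).

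ZFP36L1 (BRF1) rose in both lines, further with MET∆14 at 3 h. It measured 289 and 293 CPM at 0 h, 477 and 477 at 3 h, 500 and 561 at 6 h, and 350 and 365 at 12 h with wt MET. With MET∆14 it measured 215 and 230 CPM at 0 h, 698 and 571 at 3 h, 357 and 347 at 6 h, and 214 and 186 at 12 h. The MET∆14 level at 3 h exceeded every wt MET level, and by 12 h both MET∆14 libraries lay just under the range at 0 h. The log2 rise of ZFP36L1 at 3 h was 1.51 (SE 0.104, adjusted p = 7.61e-08) with MET∆14 and 0.71 (SE 0.103, adjusted p = 0.000209) with wt MET, where it was 0.87 (adjusted p = 1.74e-05) at 6 h. The smaller rise at 12 h with wt MET (log2 0.30, adjusted p = 0.0355) was not called when any 1 of the 4 wt MET libraries at 0 or 12 h was left out, nor without replicate 2 of wt MET at 3 h.

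ZFP36L2 (BRF2), the third member of the family, measured 39.1 and 33.9 CPM at 0 h, 27.8 and 31.0 at 3 h, 33.7 and 29.5 at 6 h, and 53.2 and 49.0 at 12 h with wt MET. In the MET∆14 line it measured 118 and 134 CPM at 0 h, 206 and 185 at 3 h, 124 and 138 at 6 h, and 113 and 103 at 12 h. Its highest libraries were those at 3 h with MET∆14 and those at 12 h with wt MET. ZFP36L2 rose by log2 0.63 (SE 0.102, adjusted p = 0.000254) at 3 h with MET∆14 and by log2 0.49 (SE 0.111, adjusted p = 0.00339) at 12 h with wt MET. Its wt MET value at 3 h (log2 -0.31, adjusted p = 0.0777) passed the threshold as lower when the lines were fitted alone and without either MET∆14 replicate at 12 h.

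Of the IER genes, IER2, a short-lived nuclear protein, had its large response with wt MET. It measured 131 and 146 CPM at 0 h, 731 and 766 at 3 h, 405 and 376 at 6 h, and 200.0 and 209 at 12 h with wt MET. The MET∆14 libraries held 135 and 139 CPM at 0 h, 175 and 161 at 3 h, 159 and 167 at 6 h, and 92.4 and 104 at 12 h. The lines overlapped at 0 h, and at 3, 6 and 12 h every wt MET library was above every MET∆14 library. IER2 rose by log2 2.44 (SE 0.0906, adjusted p = 8.85e-11), 1.50 (adjusted p = 2.22e-08) and 0.56 (adjusted p = 0.000191) at 3, 6 and 12 h with wt MET. With MET∆14 it was higher by log2 0.30 at 3 h (adjusted p = 0.0171) and 0.25 at 6 h (adjusted p = 0.0288), then lower by log2 -0.48 at 12 h (adjusted p = 0.000582). The rise at 3 h was not called without either MET∆14 replicate at 0 h or replicate 1 at 3 h, and that at 6 h when any 1 of the 4 MET∆14 libraries at 0 or 6 h was left out.

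IER3 (IEX-1), a regulator of apoptosis and ERK signalling, rose with wt MET and fell with MET∆14. It measured 114 and 105 CPM at 0 h, 373 and 400 at 3 h, 200.0 and 208 at 6 h, and 91.4 and 103 at 12 h with wt MET. The MET∆14 libraries held 161 and 171 CPM at 0 h, 159 and 149 at 3 h, 119 and 131 at 6 h, and 62.4 and 94.1 at 12 h. The MET∆14 libraries were thus highest at 0 h and lowest at 12 h, where the replicates lay far apart. IER3 rose by log2 1.82 (SE 0.138, adjusted p = 4.69e-07) at 3 h and 0.90 (adjusted p = 0.000161) at 6 h with wt MET, and was not called at 12 h (log2 -0.17, adjusted p = 0.354). With MET∆14 its change at 3 h was log2 -0.11 (95% interval -0.40 to 0.18), and it was lower at 12 h (log2 -1.10, SE 0.139, adjusted p = 2.64e-05; log2 -0.82 without replicate 1 and -1.41 without replicate 2 at 12 h). It was also called lower at 6 h (log2 -0.41, adjusted p = 0.023), but not when any 1 of the 4 MET∆14 libraries at 0 or 6 h was left out or the lines were fitted alone.

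IER5, a protein linked to the heat shock factor HSF1, rose in the MET∆14 line. It measured 79.9 and 85.1 CPM at 0 h, 150.2 and 149 at 3 h, 141 and 152 at 6 h, and 86.1 and 103 at 12 h with MET∆14. With wt MET it measured 196 and 244 CPM at 0 h, 186 and 190.4 at 3 h, 207 and 199.9 at 6 h, and 232 and 233 at 12 h. Every MET∆14 library at 3 and 6 h was above those at 0 and 12 h, while with wt MET the libraries at 0 h spanned all later values except those at 3 h. The log2 rise of IER5 with MET∆14 was 0.86 (SE 0.104, adjusted p = 1.65e-05) at 3 h and 0.83 (adjusted p = 1.4e-05) at 6 h. At 12 h with MET∆14 it was not called (log2 0.19), and this value depended on the library. It was log2 0.32 without replicate 1 and 0.06 without replicate 2 of MET∆14 at 12 h. With wt MET no time was called (log2 -0.23, -0.11 and 0.08), but the value at 3 h passed the threshold as lower without replicate 1 of wt MET at 0 h (log2 -0.37, adjusted p = 0.031) and without either MET∆14 replicate at 12 h.

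Between 3 and 12 h the members came down in both lines, with exceptions for wt MET. With MET∆14 all 10 were lower at 12 h than at 3 h, where 27.9% of all genes were called and 14.6% as lower. The count over all genes behind that share, 4202, was 6735 with replicate 2 of MET∆14 at 12 h left out, and 2109 and 2768 without either MET∆14 replicate at 3 h. With wt MET 7 were lower and 2, ZFP36L2 and IER5, were higher (19.9% called, 11.1% as lower and 8.83% as higher). The falls were deepest for NR4A1 (log2 -4.80, SE 0.133), NR4A3 (log2 -2.95) and NR4A2 (log2 -2.50) with wt MET and for MAFF (log2 -2.32, SE 0.151), NR4A3 (log2 -1.91) and NR4A1 (log2 -1.70) with MET∆14. MAFF with wt MET did not pass the test (log2 0.03, 95% interval -0.25 to 0.31). The call of IER5 with wt MET (log2 0.31, adjusted p = 0.0453) was lost in 14 of 22 alternatives, and that of ZFP36L1 (log2 -0.42, adjusted p = 0.00971) without either wt MET replicate at 3 h or replicate 1 at 12 h.

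Before HGF, 7 of the 10 members differed between the lines, 3 higher and 4 lower with MET∆14, in a comparison that called 80.2% of all genes (40.6% as higher, 39.6% as lower). Higher with MET∆14 were NR4A2 (log2 1.88, SE 0.194), ZFP36L2 (log2 1.79, SE 0.11) and IER3 (log2 0.60, SE 0.136). Lower with MET∆14 were NR4A3 (log2 -4.21, SE 0.223), MAFF (log2 -3.03, SE 0.148), IER5 (log2 -1.41, SE 0.105) and ZFP36L1 (log2 -0.39, SE 0.103). These 7 had adjusted p-values from 5.1e-11 to 0.00296 by edgeR's quasi-likelihood test. IER2 (log2 -0.02, 95% interval -0.20 to 0.17) and ZFP36 (log2 -0.05, 95% interval -0.24 to 0.14) were not called, and their signs turned in some alternatives. NR4A1 (log2 -0.36, adjusted p = 0.0548) was not called, but was in 3 of the fits that left out a library.

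To compare genes with each other, CPM were divided by the length of the longest annotated transcript. At 0 h with wt MET, IER3 had the highest level on this scale (81.1 ± 4.58 CPM per kb, mean ± SD, n = 2), followed by ZFP36L1 (64.1 ± 0.747), MAFF (60.1 ± 15.8), IER5 (52.4 ± 8.05) and IER2 (47.1 ± 3.50), then ZFP36 (29.3 ± 0.854) and ZFP36L2 (9.88 ± 1.01). NR4A3 (1.86 ± 0.0126), NR4A1 (1.42 ± 0.253) and NR4A2 (0.908 ± 0.219) were far lower. Neighbours in this order overlapped within 1 SD from ZFP36L1 to MAFF, from MAFF to IER5 and from IER5 to IER2, and not elsewhere. With MET∆14 at 0 h, IER3 was again highest (123 ± 5.01 CPM per kb), followed by ZFP36L1 (49.1 ± 2.40) and IER2 (46.6 ± 0.955), which overlapped, then ZFP36L2 (34.2 ± 3.02), ZFP36 (28.3 ± 1.68), IER5 (19.6 ± 0.870) and MAFF (7.39 ± 0.610). NR4A2 (3.35 ± 0.0427), NR4A1 (1.10 ± 0.104) and NR4A3 (0.0993 ± 0.00499) were lowest. At 3 h the leader was IER3 with wt MET (286 ± 14.3 CPM per kb), ahead of IER2 (255 ± 8.60), and ZFP36L1 with MET∆14 (140 ± 19.7), ahead of IER3 (114 ± 5.05). The order depends on the length: by the median transcript, ZFP36L1 was first at 0 h with wt MET (155 CPM per kb, IER3 84.6) and IER2 first at 3 h (355, IER3 299), and NR4A1 with wt MET at 3 h stood at 288 CPM per kb against 47.3 by the longest.

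**Figure D3:**
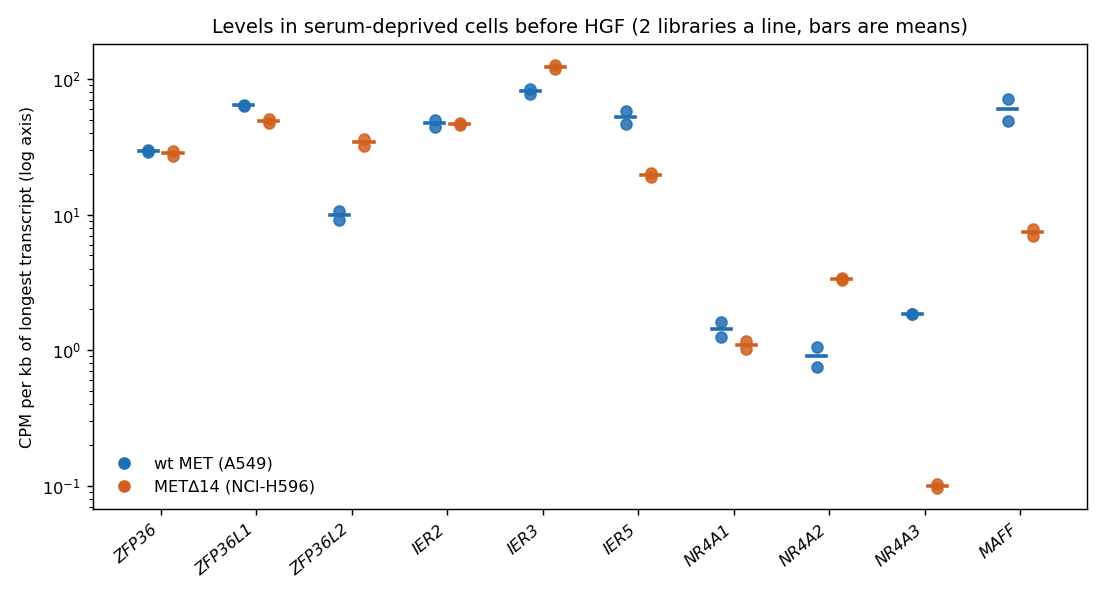
CPM per kb of the longest transcript (log axis) at 0 h, with 1 point per library and bars at the mean of 2 libraries, wt MET in blue and MET∆14 in orange. ZFP36, IER2 and NR4A1 each lie at a similar level in the 2 lines, whereas NR4A3 and MAFF are lower and NR4A2 and ZFP36L2 higher with MET∆14.

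Whether the response to HGF differed between the lines was tested by the difference of the log2 changes, MET∆14 minus wt MET, in the model that holds both lines. At 3 h all 10 members differed, where 17.4% of all genes were called (8.93% as higher and 8.47% as lower with MET∆14). The response was smaller with MET∆14 for 6 of them: NR4A1 (-3.99, SE 0.210), NR4A2 (-3.02, SE 0.253), IER2 (-2.14, SE 0.124), IER3 (-1.93, SE 0.192), ZFP36 (-1.80, SE 0.124) and NR4A3 (-1.33, SE 0.365). It was larger with MET∆14 for 4: MAFF (1.67, SE 0.196), IER5 (1.08, SE 0.146), ZFP36L2 (0.94, SE 0.155) and ZFP36L1 (0.80, SE 0.145). Within the ZFP36 family and within the IER genes the members therefore split, while the 3 NR4A genes all had the smaller response with MET∆14. Adjusted p-values ranged from 1.69e-08 for NR4A1 to 0.02 for NR4A3, and 9 of these 10 calls held in all alternatives, apart from a minimum fold change. The difference of NR4A3, which rests on 9 to 38 counts per library in the MET∆14 line, was not called without either replicate of MET∆14 at 0 h or replicate 2 at 3 h (-1.39 to -1.09).

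At 6 h, 7 members differed (30.2% of all genes called). IER5 had the larger response with MET∆14 (0.94, adjusted p = 0.000183; 16.4% of all genes as higher), and ZFP36, IER2, IER3 and the 3 NR4A genes the smaller, from -0.71 to -2.83 (13.8% as lower). ZFP36L1 (-0.21, 95% interval -0.52 to 0.10), ZFP36L2 (0.26, 95% interval -0.07 to 0.59) and MAFF (0.22, 95% interval -0.20 to 0.64) were not called. At 12 h, 8 members differed, all with the lower response in MET∆14 (24.0% called, 11.0% as lower), from -1.34 for NR4A2 to -0.45 for ZFP36L1. For ZFP36L1, ZFP36L2 and MAFF the sign at 12 h was opposite to that at 3 h. The calls of ZFP36L1, NR4A1 and MAFF at 12 h were lost in 9, 4 and 5 of 21 alternatives, and 5 members were called without replicate 1 of wt MET at 12 h. Without replicate 2 of MET∆14 at 12 h, 8 members were called. Over all times together all 10 were called (37.6% of all genes).

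**Figure D4:**
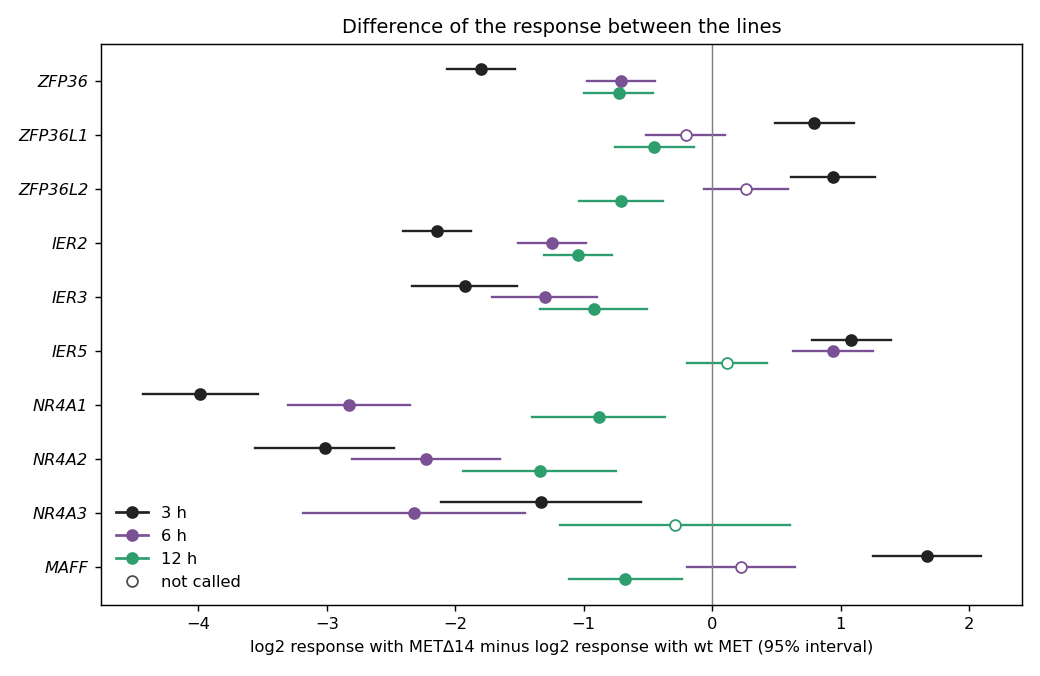
Difference of the log2 response, MET∆14 minus wt MET, with its 95% interval at 3 h (black), 6 h (purple) and 12 h (green), where open circles were not called. At 3 h ZFP36L1, ZFP36L2, IER5 and MAFF lie right of 0 and the other 6 genes left of it, down to -3.99 for NR4A1, and at 12 h all called points lie left of 0.

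An additive model of line and time, the formula stated for the study, called 8 members for time (30.6% of all genes). ZFP36L2 (adjusted p = 0.617) and IER5 (adjusted p = 0.393), each of which rose at 3 h with MET∆14 and had a negative uncalled value with wt MET, were not called. The largest time coefficients were log2 3.26 for NR4A1 and log2 3.23 for NR4A3.

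The other genes of the response were described with a list of 40 early response genes, none of them a member. With wt MET 32 were higher and 1 lower at 3 h, 26 and 2 at 6 h, and 17 and 6 at 12 h. With MET∆14 23 were higher and 3 lower at 3 h, 15 and 12 at 6 h, and 5 and 27 at 12 h. Over all genes the shares called were 17.4%, 34.2% and 35.1% with wt MET and 31.7%, 44.1% and 38.3% with MET∆14. The median log2 change of the list was 0.85, 0.70 and 0.26 with wt MET and 0.35, -0.10 and -0.58 with MET∆14. Among called genes whose log2 CPM averaged 3 or more in the line, the largest mean changes over the 3 times with wt MET were those of the transcription factors EGR2 (log2 6.18 at 3 h), FOSB (5.21) and JUNB (3.90). With MET∆14 the same genes changed by log2 0.98, 0.99 and 0.10 at 3 h, of which JUNB was not called (adjusted p = 0.567). By the same rule the leading genes with MET∆14 were FOSL1, the AP-1 subunit FRA1 (log2 3.04 at 3 h), HBEGF, a ligand of the EGF receptor (2.62), and EGR1, which was lower at every time (log2 -0.86, -1.36 and -2.81) and higher at 3 h with wt MET (log2 4.72). FOSL1 and HBEGF changed by log2 1.25 and 0.92 with wt MET at 3 h. Below that level, and named after their values were seen, EGR3 with wt MET (log2 7.89 at 3 h) had a larger mean change than EGR2, EGR4 with wt MET (log2 5.90) a larger one than JUNB, and EGR4 with MET∆14 (log2 4.58) a larger one than FOSL1. The responses of 21 genes of the list differed at 3 h, 5 larger and 16 smaller with MET∆14 (17.4% of all genes called), and 26 at 12 h, 1 larger and 25 smaller (24.0% called).

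**Figure D5:**
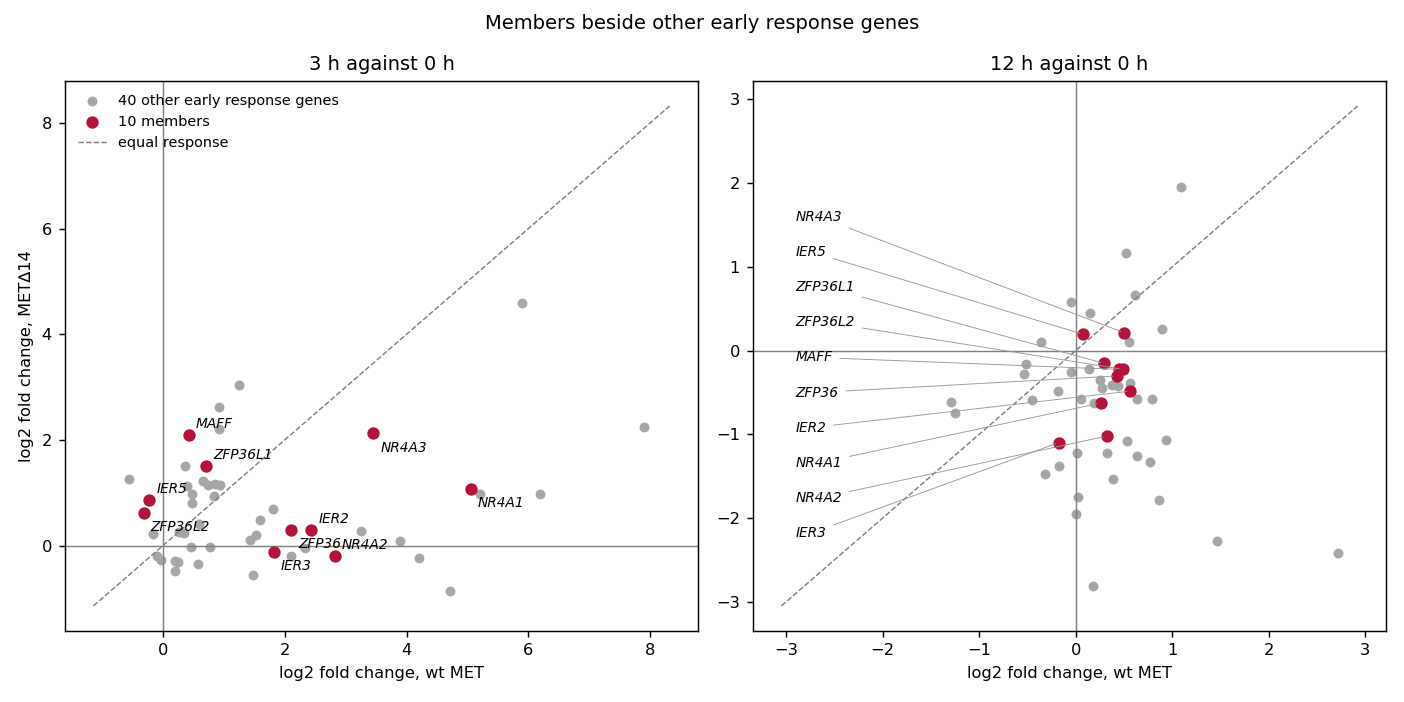
Log2 fold change against 0 h with MET∆14 (vertical) and with wt MET (horizontal) at 3 h and at 12 h for the 10 members (red, named) and 40 other early response genes (grey), where the dashed line marks equal responses. At 3 h NR4A1 (5.06 and 1.07) lies far below the line beside most grey points of large wt MET change, and MAFF and ZFP36L1 lie above it.

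Of 21 mRNAs reported as targets of ZFP36 proteins, 17 were tested. With wt MET 8 were higher and 0 lower at 3 h and at 6 h, and 5 higher and 1 lower at 12 h, while with MET∆14 13, 10 and 5 were higher and 0, 0 and 5 lower. Over all genes, 10.3%, 16.4% and 16.9% were higher with wt MET and 15.5%, 21.6% and 18.3% with MET∆14. The chemokine CXCL8 was higher in both lines at 3 h (log2 3.04 with wt MET, 3.66 with MET∆14), as were the prostaglandin synthase PTGS2 (1.46 and 1.25) and the cytokine LIF (0.76 and 3.38). IL1B, the interleukin, rose with MET∆14 (log2 2.20 at 3 h, 32.6 to 150.2 CPM) and was listed at 0 CPM with wt MET at 0, 3 and 6 h. IL1A, IL6 and CCL20, also called higher with MET∆14 at 3 h, were near the floor with wt MET. At 3 h they had 0.48, 0.07 and 0.27 CPM with wt MET and 53.1, 17.9 and 2.61 with MET∆14. The numbers of targets called in each line are therefore not directly comparable. Of 20 genes of AU-rich element decay and its regulators, 4 were higher and 1 lower with wt MET at 3 h, and 2 and 5 with MET∆14, with median log2 changes of 0.01 and -0.13. These counts lie near the shares called over all genes, 17.4% and 31.7%. The exonuclease XRN1 was higher with wt MET (log2 0.60) and lower with MET∆14 (log2 -0.80) at 3 h. CNOT2, a subunit of the deadenylase complex, moved likewise (log2 0.40 and -0.33), whereas the decapping factor DCP1A (log2 0.49 and 0.52) and MAPKAPK2 (log2 0.36 and 0.81), the kinase that phosphorylates ZFP36, were higher in both lines. TIA1, which also binds AU-rich mRNAs, was lower with MET∆14 (log2 -0.69) and not called with wt MET (log2 0.05, adjusted p = 0.785).

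Of 8 partners and relatives of MAFF, 7 were tested, and 4 were higher and 1 lower at 3 h in each line (10.3% of all genes higher with wt MET and 15.5% with MET∆14). MAFK, a small Maf factor like MAFF, was higher at 3 h in both (log2 0.95 with wt MET, 0.77 with MET∆14), as was the repressor BACH1 (0.86 and 0.39), and NFE2L1 was lower (-0.39 and -0.38). NFE2L2, which encodes NRF2, was lower with MET∆14 at 6 and 12 h (log2 -0.86 and -0.86) and higher by log2 0.27 at 3 h with wt MET. Of the 3 retinoid X receptors, with which NR4A1 and NR4A2 form dimers, RXRA and RXRB were tested (7.16% of all genes were lower at 3 h with wt MET, 16.1% with MET∆14). RXRA was lower at 3, 6 and 12 h in both lines (log2 -0.28, -0.43 and -0.71 with wt MET, -0.43, -0.85 and -0.61 with MET∆14). RXRB was lower with MET∆14 (log2 -0.81 at 3 h) and not called with wt MET (log2 -0.06).

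The genes whose pattern was most like that of each member were sought by Pearson correlation of log2 CPM over the 16 libraries, centred within each line, among 8570 or 8571 genes. The points share their 0 h groups and library sizes, so the values are descriptions. IER2 was closest to TIPARP (0.982), FOSB (0.975) and KLF10 (0.966), and IER3 to FOS (0.968), SOCS3 (0.963) and EGR1 (0.956). NR4A1, NR4A2 and ZFP36 each had INSIG1 as the closest gene (0.972, 0.94 and 0.94), and NR4A1 and NR4A2 each had ZFP36 among the 3 closest (0.952 and 0.931). NR4A3 was closest to KDM6B (0.959). ZFP36L1 and MAFF shared the cytokine LIF among their closest genes (0.96 and 0.961), with SLC20A1 first for ZFP36L1 (0.967) and AREG among the 3 closest for MAFF (0.947). IER5 was closest to TFB2M (0.961), and ZFP36L2, with the lowest values, to ENC1 (0.913).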

How the data were processed

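Per the labels, polyadenylated RNA was sequenced after TruSeq preparation. The authors mapped reads to hg38 with STAR and deposited whole-number counts of reads per gene, without normalization. The submitters' processing notes name STAR 2.5.0 and RSEM 1.3.2 without a role for either. The strand setting and the annotation used for counting are not given in the sources used here. The columns of wt MET libraries spell the line H549, and were matched to the A549 titles on the remaining characters.

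Counts were analysed with R 4.3.3 and edgeR 4.0.16: filterByExpr (minimum count 10, minimum total 15), TMM factors, and a robust quasi-likelihood fit with 1 coefficient for each of 8 conditions over 16 libraries. The 15067 tested genes held 99.958% of counts, and totals of 10158590 to 23909304 per library set the precision. Benjamini-Hochberg adjustment ran over all genes tested, and a gene with an adjusted p-value under 0.05 is named called. Log2 CPM used a prior count of 2. Replicates of a condition differed by more than sampling noise (chi-square per degree of freedom 2.75 to 34.1). No common pairing by replicate number was seen: over 28 pairs the correlation of deviations was -0.159 to 0.111. These values cannot exclude samples paired with their numbers crossed between conditions.

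The members and lists were chosen with earlier results of these data known. All 10 members are named. Of each list, the genes with the 3 largest absolute mean log2 changes in a line are named, if called at any time and at a mean log2 CPM of 3 or more, and of each member the 3 most correlated genes were taken. The scripts were tested on simulated data. Alternatives were DESeq2 1.42.0, its size factors in edgeR, no filter, 10 or more counts in each library, an absolute log2 change of 1 or more, a replicate block, each line fitted alone and each library left out in turn with the same genes. Positions and 3′ UTRs are from GENCODE 44, promoters from RefSeq. Figures used Python 3.11.15 and matplotlib 3.10.9.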

Additional observations from a re-analysis of the deposited data

Results flagged for a closer look

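The response to HGF differed between the lines for all 10 members in the F test over the differences at 3, 6 and 12 h (edgeR, Benjamini-Hochberg adjustment over 15067 genes, 37.6% of which were called). The adjusted p was 4.02e-08 for NR4A1, 1.96e-07 for IER2, 8.08e-07 for ZFP36, 3.74e-06 for NR4A2 and 4.27e-06 for MAFF. It was 1.16e-05 for ZFP36L2, 2.17e-05 for IER3, 4.62e-05 for IER5, 5.99e-05 for ZFP36L1 and 0.000699 for NR4A3. Each line is 1 cell line, so these differences and any other feature of the lines cannot be told apart.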

How the results depend on the processing

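Of the 129 calls of a member, 113 held in every alternative other than a minimum fold change, and 16 were lost in at least 1. With a minimum absolute log2 change of 1, the members called were 4 (wt MET 6 h), 0 (wt MET 12 h), 4 (MET∆14 3 h), 1 (MET∆14 6 h), 2 (MET∆14 12 h), 6 (MET∆14 any time), 4 (MET∆14 12 h against 3 h) and 2 (difference at 12 h). With each line fitted alone, 3 members were called for MET∆14 at 12 h. When each library was left out in turn, the count ranged from 3 to 6 for wt MET at 12 h (3 with replicate 1 of wt MET at 12 h left out), from 3 to 7 for MET∆14 at 12 h (3 without replicate 2 of MET∆14 at 0 h) and from 5 to 8 for the difference at 12 h (5 with replicate 1 of wt MET at 12 h left out). The causes were not tested.

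The replicate number as a block left every count as it was, for example 8 for wt MET and 8 for MET∆14 at 3 h and 10 for the difference at 3 h. A block with crossed numbers for 12 h against 3 h with MET∆14, chosen after seeing the data because the correlation there was -0.159, gave 10 calls too.

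Signs turned only for values that were not called. For IER2 between the lines at 0 h, the value was 0.0024 with DESeq2's size factors, 0.0025 with DESeq2, 0.0059 with no filter and 0.0899 with at least 10 counts, and -0.0889 to 0.0629 with a library left out. For ZFP36 between the lines at 0 h it was 0.0528 with at least 10 counts and -0.115 to 0.006 with a library left out. For MAFF at 12 h against 3 h with wt MET it was -0.0016 with no filter. With a library left out, IER5 ranged from -0.0678 to 0.2472 at 12 h and from -0.2615 to 0.0536 at 6 h with wt MET and from -0.0539 to 0.2612 for the difference at 12 h, and MAFF from -0.0738 to 0.4695 for the difference at 6 h. At 6 h with MET∆14, ZFP36L2 ranged from -0.0309 to 0.1494 and ZFP36 from -0.1257 to 0.0172.

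Over all genes, leaving out either MET∆14 replicate at 12 h raised the calls at 3 h with wt MET from 2629 to 4166 and 4157 and those of the difference at 3 h from 2621 to 4154 and 4157. The first count fell to 1557 and 1332 without either wt MET replicate at 3 h and to 1568 with replicate 1 of wt MET at 0 h left out. Leaving out any 1 of the 4 wt MET libraries at 3 and 12 h moved the calls at 12 h against 3 h with wt MET from 2995 to between 1369 and 1824, and either MET∆14 replicate at 12 h to 4631 and 4630. NR4A3 with MET∆14 had 8 to 38 counts per library, so its changes there are the least precise, and it was not tested with at least 10 counts in every library.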
